A study of Mus musculus with 30 samples.

Results

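Acetyl-CoA is made in mitochondria and used on both sides of the mitochondrial membrane, and the enzymes described here stand at the crossings of that traffic. They are Acat1, Hsd17b10, Acly and Hmgcs1, measured in mouse cerebral cortex and hippocampus by every array probe that carried one of these gene symbols and no other. That gave 5 probes for 4 genes, out of 16896 probes on the membrane, of which 9663 carried a single symbol for 7151 genes, with 1 probe each for Acat1, Hsd17b10 and Acly and 2 for Hmgcs1. The arrays came from mice aged 12 weeks, of a mixed genetic background, in 2 lines bred separately, with wild types from wild-type parents and nulls from null fathers and heterozygous mothers. One line carried a deletion of COX-1 (labelled COX-1 KO, here COX-1-/-) and the other a deletion of COX-2 (COX-2 KO, here COX-2-/-), and each had its own wild-type group (COX-1 WT and COX-2 WT, here COX-1+/+ and COX-2+/+). The COX-2 line also gave heterozygotes (COX-2 Hetero, here COX-2+/-). COX-1 and COX-2 are the cyclooxygenases that start prostaglandin synthesis from arachidonic acid, and the deletions were germline, so no cell type was singled out. Each of the 10 groups of region, line and genotype held 3 arrays, and the labels name no treatment.

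In mitochondria, fatty acids and isoleucine are shortened by repeated cycles in which a 3-hydroxyacyl-CoA is oxidised and the product is split by a thiolase. Hsd17b10 encodes a dehydrogenase of the oxidation step that acts on short and branched chains, and the same protein is a subunit of the mitochondrial RNase P. Acat1 encodes the mitochondrial acetoacetyl-CoA thiolase, which works in isoleucine breakdown and in both the formation and the use of ketone bodies, the fuel that brain draws on when glucose is scarce. Acly encodes ATP citrate lyase, which splits exported citrate into acetyl-CoA and oxaloacetate in the cytosol. Hmgcs1 encodes the cytosolic HMG-CoA synthase, which joins acetyl-CoA to acetoacetyl-CoA on the way to mevalonate and cholesterol.

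On the GRCm38.p6 build Acat1 lies on chromosome 9 from 53580522 to 53610350, and it was read by the expressed sequence tag BG083405. Hsd17b10 lies on chromosome X from 152001896 to 152004442 and was read by BG073539. Acly lies on chromosome 11 from 100476352 to 100528000 and was read by AW538652. Hmgcs1 lies on chromosome 13 from 119690351 to 119708260 and was read by BG069739 and by AU020524. Which exons each tag covers was not analysed here.

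The RefSeq promoter table holds entries for Hsd17b10, Acly and Hmgcs1, and the 250 bases before each annotated start are shown. The reason was that the group levels of Acly and of Hmgcs1 probe BG069739, described later, ran side by side. Those of the other Hmgcs1 probe, AU020524, did not run with Acly. Capitals mark 3 motifs searched on both strands: the inverted CCAAT box (ATTGG), the GC box (GGGCGG) and a sterol regulatory element-like motif (TCACNCCAC).
Hmgcs1 (chr13:119690101-119690350, plus strand): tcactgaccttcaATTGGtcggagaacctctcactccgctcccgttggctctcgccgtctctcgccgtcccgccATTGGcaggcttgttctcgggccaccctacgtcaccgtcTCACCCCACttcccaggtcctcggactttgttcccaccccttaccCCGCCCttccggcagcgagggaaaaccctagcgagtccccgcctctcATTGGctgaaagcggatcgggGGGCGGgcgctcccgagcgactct
Acly (chr11:100528001-100528250, minus strand): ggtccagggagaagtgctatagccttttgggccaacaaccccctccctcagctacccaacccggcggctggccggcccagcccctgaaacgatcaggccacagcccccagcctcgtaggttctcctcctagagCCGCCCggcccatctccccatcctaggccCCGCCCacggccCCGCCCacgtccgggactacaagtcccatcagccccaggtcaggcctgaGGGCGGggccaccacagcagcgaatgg
Hsd17b10 (chrX:152001646-152001895, plus strand): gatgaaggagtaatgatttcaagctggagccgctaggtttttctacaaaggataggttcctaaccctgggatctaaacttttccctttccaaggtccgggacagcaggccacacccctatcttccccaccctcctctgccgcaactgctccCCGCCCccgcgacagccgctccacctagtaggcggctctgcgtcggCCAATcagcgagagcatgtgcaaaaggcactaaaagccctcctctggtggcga
The Hmgcs1 window held the inverted CCAAT box 3 times, the GC box 2 times and the sterol regulatory element-like motif 1 time. The Acly window held 4 GC boxes, and neither of the other motifs was found in it. The Hsd17b10 window held 1 GC box and 1 CCAAT box. No motif overlapped another in these windows. Among all 32851 windows of this length in the table, 33.8% held the CCAAT box, 32.7% the GC box and 1.05% the sterol regulatory element-like motif.

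Values are Z scores: the natural log intensity of a probe minus the mean of its array, in units of the SD of that array. A difference in Z is therefore not a fold change, and levels of different probes on this membrane cannot be set against each other per length of transcript. For the 8448 probes of the first part of the table, 5 COX-1 cortex arrays out of 6 repeat one another exactly, so no COX-1 cortex value was used for the 4 member probes that lie there. Only Hsd17b10, in the other part, has a level in all 10 groups. Within groups, r between arrays was 0.982 to 0.993. The labels do not say which arrays came from separate animals, so p-values measure the spread between arrays. The transcripts of the deleted genes, Ptgs1 and Ptgs2, were not analysed here, since no probe was matched to them by symbol. Tissue markers were few on this membrane: no oligodendrocyte marker of 8, 2 neuronal markers of 8, 4 astrocyte markers of 8 and 3 microglial markers of 8 were measured. Of 7 hippocampal markers 2 had a probe, and they did not settle the labelled regions: all 4 probes of Calb1 had a lower mean in hippocampus than in cortex of COX-1+/+ mice (BG084302 at a Z of 0.0108 ± 0.118 against 0.537 ± 0.0312, SD, n = 3, limma adjusted p 3.9e-05), while BG084302 was higher in hippocampus of COX-2+/- mice by 0.359 (limma adjusted p 0.00410). There Calb1 BG071405 also had a higher mean, and BG076015 and BG072229 a lower one. Zbtb20, the other marker, had a higher mean in hippocampus in each COX-2 line genotype: -0.0457 against -0.146 in COX-2+/+, -0.0105 against -0.205 in COX-2+/- and -0.0824 against -0.133 in COX-2-/-. All its means were under 0, so it was not tested.

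**Figure D1:**
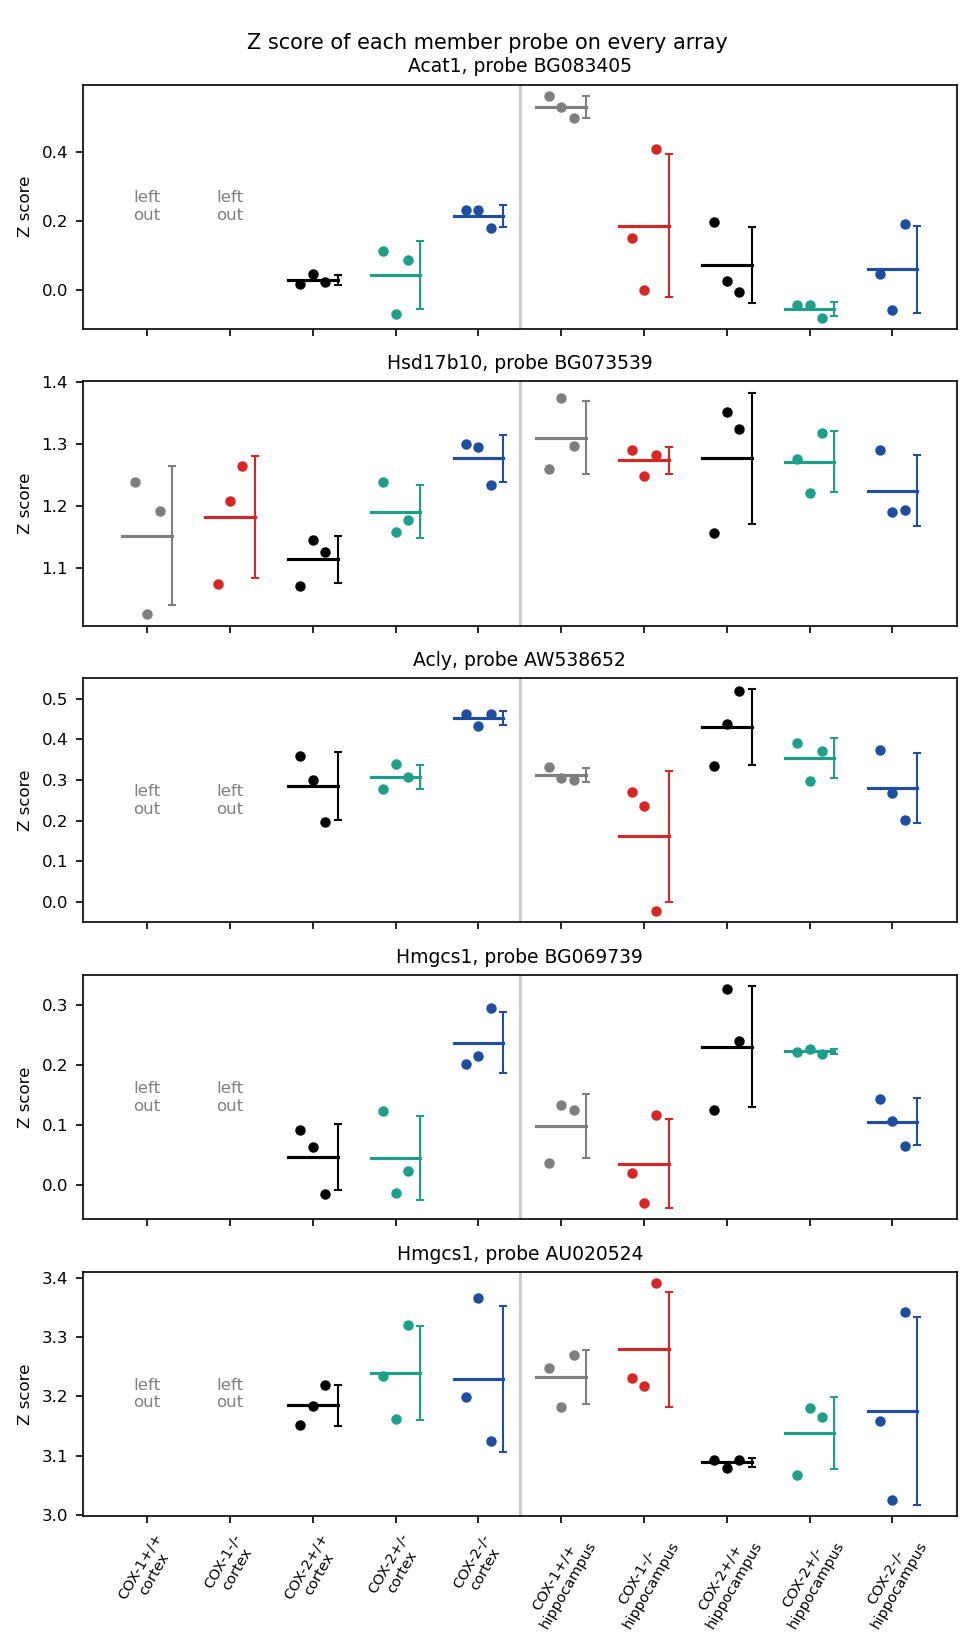
Z score (vertical axis, its range differing between panels) of each member probe on every array, by group along the horizontal axis. Points are arrays, horizontal lines are means of 3 arrays and bars are SD; groups marked "left out" hold copied values. Acat1 stands highest in COX-1+/+ hippocampus, at 0.498 to 0.564, and the probes Acat1, Hsd17b10, Acly and Hmgcs1 BG069739 are higher in COX-2-/- cortex than in COX-2+/+ cortex with no overlap.

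In cerebral cortex without COX-2, Acat1, Hsd17b10, Acly and Hmgcs1 probe BG069739 were higher than in wild type without overlap, and Hmgcs1 probe AU020524 overlapped. Acat1 was 0.234, 0.232 and 0.179 on the 3 COX-2-/- arrays against 0.0184, 0.0471 and 0.0256 on the COX-2+/+ arrays, a difference in Z of 0.185 (limma SE 0.0536). All null arrays lay above all wild-type arrays. Hsd17b10 was 1.30, 1.30 and 1.23 without COX-2 and 1.07, 1.15 and 1.13 in wild type, a difference of 0.162 (SE 0.0594). Acly was 0.462, 0.432 and 0.462 against 0.360, 0.300 and 0.196, a difference of 0.167 (SE 0.0503). For these the groups did not overlap either, and the Acly wild-type arrays were spread over a wider range than the null arrays. Hmgcs1 read by BG069739 was 0.201, 0.214 and 0.294 against 0.0913, 0.0627 and -0.0151, a difference of 0.190 (SE 0.0533). Read by AU020524, Hmgcs1 was 3.20, 3.37 and 3.13 against 3.15, 3.18 and 3.22, a difference of 0.0449 (SE 0.0657), and its groups overlapped.

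The study called a probe when its mean Z was above 0, the P of its Z test was under 0.05 and its z ratio, computed here as the difference in Z over the SD that the differences of all probes had in that comparison, was beyond 1.5. The study's methods name the SD of all genes on an array as the denominator. On the Z scale that SD is 1, and no member difference in any comparison of 2 groups would then reach the threshold. With the SD of the differences, the z ratios of Acat1, Hsd17b10 and Acly in COX-2-/- cortex equalled those the paper printed. In COX-2-/- cortex 4 of the 5 member probes met the rule with the SD of the differences, all higher, beside 4.32% of 8003 tested probes that met it in either direction and 2.69% that met it on the higher side. The groups did not overlap for the same 4 of 5, beside 16.9% of all probes. The z ratios were 1.83 for Acat1, 1.60 for Hsd17b10, 1.65 for Acly and 1.88 for Hmgcs1 BG069739, so all 4 stood close to the threshold. The study had itself picked Acat1, Hsd17b10 and Acly on these arrays, so this count describes them and is not independent evidence. Apart from the arrays, the study reported each of these genes higher in COX-2-/- cortex by Q-PCR, with samples from further animals added. By limma with Benjamini-Hochberg adjustment none of the 5 passed, with adjusted p of 0.419, 0.431, 0.419, 0.419 and 0.837 in the order above. No probe on the membrane passed that test here (0% of 8003), while 754 probes, 4 of them members, had an unadjusted p under 0.05. The Acat1 difference was larger in size than 95.6% of all 16896 differences and the Hsd17b10 difference than 93.3%. Without COX-2-/- array 1, Acly and Hsd17b10 no longer met the rule (z ratio 1.40 and 1.30), and without COX-2+/+ array 3 neither did Acly or Hmgcs1 BG069739 (1.14 and 1.48). Hsd17b10 also missed it without COX-2-/- array 2 (1.43) or COX-2+/+ array 1 (1.28). The summed neuronal markers lay between 0.143 and 0.213 (mean Z) on null arrays and between 0.0663 and 0.179 on wild-type arrays, and their part in the member differences was not tested. In bulk tissue, fewer cells of a type and less RNA per cell cannot be told apart.

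**Figure D2:**
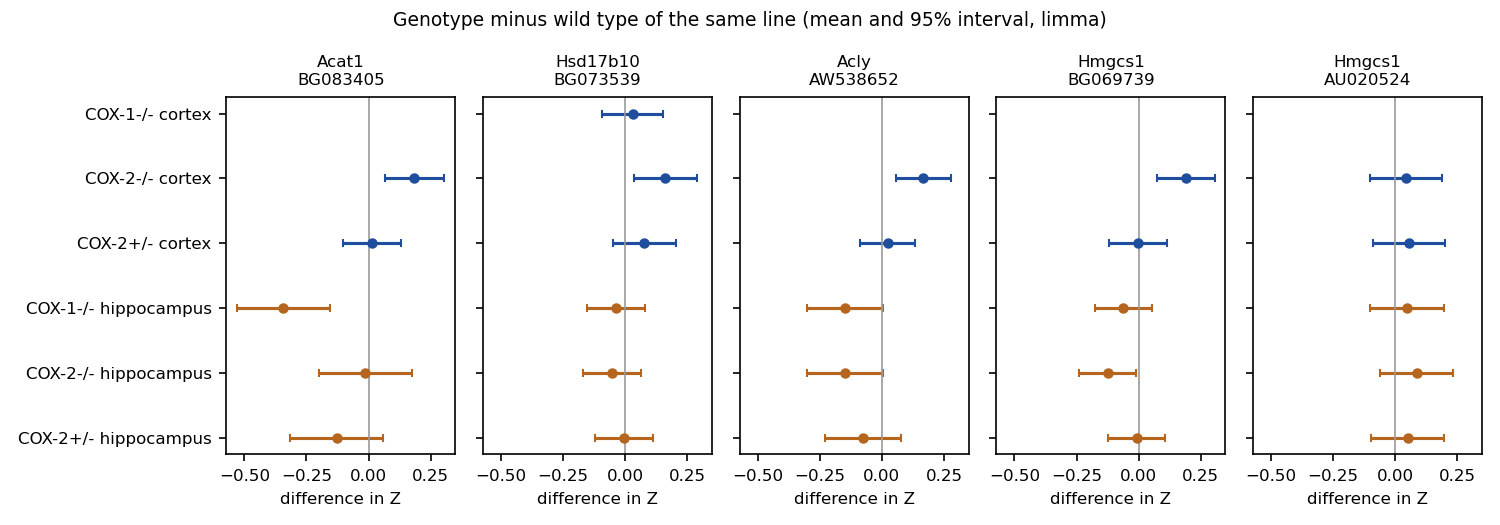
Difference in Z (horizontal axis) between each genotype and the wild type of its line, by region (vertical axis), for each member probe; points are means over 3 arrays a group and bars are 95% intervals from limma. Only Hsd17b10 has a COX-1-/- cortex row. The intervals of Acat1, Hsd17b10, Acly and Hmgcs1 BG069739 in COX-2-/- cortex, of Acat1 in COX-1-/- hippocampus and of Hmgcs1 BG069739 in COX-2-/- hippocampus (-0.240 to -0.0101) lie clear of 0, without adjustment over probes.

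In cortex with 1 remaining COX-2 allele no member was called against wild type. Acat1 in COX-2+/- cortex was 0.115, -0.0674 and 0.0879, a difference from COX-2+/+ of 0.0148 (95% interval -0.103 to 0.133), and Hmgcs1 BG069739 was 0.123, -0.0134 and 0.0232, a difference of -0.00205 (95% interval -0.119 to 0.115). Acly differed by 0.0229 and Hmgcs1 AU020524 by 0.0541. Hsd17b10 had a mean between those of the other genotypes, at 1.24, 1.16 and 1.18, with all heterozygous arrays above all wild-type arrays and a difference of 0.0769 (SE 0.0594). The share of all probes whose groups did not overlap here was 15.8%, and 1 of 5 members is to be read beside it. None of the 5 met the study's rule, which 3.26% of 8011 tested probes met, or passed limma, which 0% passed (adjusted p 0.782 to 0.996, and no member with an unadjusted p under 0.05, beside 608 of all probes). Set directly against COX-2-/- cortex, the heterozygous arrays were lower for Hmgcs1 BG069739 by a Z of -0.192 (SE 0.0533), for Acat1 by -0.170 (SE 0.0536) and for Acly by -0.144 (SE 0.0503), and in each of these the groups did not overlap, as in 21.5% of all probes. Hmgcs1 BG069739 met the rule there (z ratio -1.67), as did 3.15% of 7988 tested probes, and Acat1 fell short of it (z ratio -1.48). The limma adjusted p was 0.365 for Hmgcs1 BG069739, 0.408 for Acat1 and 0.414 for Acly, 0% of probes passed, and 3 members were among 820 probes with an unadjusted p under 0.05. Without any one of COX-2+/- array 2, COX-2+/- array 3 or COX-2-/- array 3, Hmgcs1 BG069739 no longer met the rule (z ratio -1.29, -1.496 and -1.39). Without COX-2+/- array 1, COX-2+/- array 3 or COX-2-/- array 3, Acat1 met it (z ratio -1.70, -1.58 and -1.60). These comparisons share the COX-2-/- or the COX-2+/+ arrays with those above.

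For cortex without COX-1 a value exists for Hsd17b10 alone. It was 1.07, 1.21 and 1.26 in COX-1-/- and 1.24, 1.03 and 1.19 in COX-1+/+ cortex, a difference of 0.0303 with a 95% interval of -0.0930 to 0.154. The groups overlapped (17.5% of probes did not), the limma adjusted p was 0.841, and neither the limma test (passed by 0.0488% of 4102 probes) nor the study's rule (met by 2.71%) called it. The difference between the COX-2-/- effect and the COX-1-/- effect in cortex was 0.132 (95% interval -0.0423 to 0.306, limma adjusted p 0.585, with 0% of 4109 probes called and 437 at an unadjusted p under 0.05). Between the wild-type groups of the lines in cortex Hsd17b10 differed by -0.0379 (SE 0.0576, limma adjusted p 0.775), with overlap, where limma called 1.95% of 4103 probes, the rule 5.17%, and 20.8% did not overlap.

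In hippocampus without COX-1 Acat1 was lower than in wild type. Acat1 was 0.564, 0.531 and 0.498 on the COX-1+/+ arrays and 0.152, 0.000741 and 0.410 on the COX-1-/- arrays. Every null array lay below every wild-type array, and the null arrays differed widely among themselves, with an SD of 0.207 against 0.0331. The difference was -0.344 (SE 0.0877), with a z ratio of -3.00 that met the study's rule. Of the 5 members 1 met it, beside 4.8% of 8058 tested probes, 1.79% on the lower side. In the limma test, passed by 0.310% of probes, the Acat1 adjusted p was 0.0850. The study had picked Acat1 on these arrays too, and it reported Acat1 lower there by Q-PCR, with samples from further animals added. Without COX-1-/- array 3 the difference was -0.455 and the limma adjusted p 0.0478, while without COX-1-/- array 1 or array 2 it was -0.326 or -0.250 and the rule was no longer met, since the P of the Z test then missed 0.05. The 3 COX-1-/- arrays also differed in Ttr, the transthyretin transcript that marks choroid plexus: 2.36, 1.59 and 0.326 in the same array order, against 1.29, 1.66 and 1.89 in COX-1+/+. Ttr was the only choroid plexus marker of 3 measured, and its part in the Acat1 difference was not tested.

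Acly was 0.271, 0.235 and -0.0233 in COX-1-/- hippocampus against 0.331, 0.304 and 0.299 in COX-1+/+, a difference of -0.150 (SE 0.0718). The groups did not overlap, as for 20.5% of all probes, but the z ratio of -1.31 missed the rule and the limma adjusted p was 0.317. The array with the highest Acat1 among the nulls, array 3, had the lowest Acly. Hsd17b10 differed by -0.0364 (SE 0.0543), Hmgcs1 BG069739 by -0.0621 (SE 0.0537) and Hmgcs1 AU020524 by 0.0467 (SE 0.0691), each with overlapping groups.

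The control of the Acat1 difference in COX-1-/- hippocampus, the wild-type group of the same line, stood apart from the other groups in Acat1. A difference between the lines and a trait of this group cannot be told apart, since COX-1 cortex has no Acat1 value. The COX-1+/+ hippocampus mean of 0.531 was the highest of the 8 Acat1 group means, and the next, COX-2-/- cortex at 0.215, did not overlap with it. In hippocampus COX-2+/+ was at 0.198, 0.0258 and -0.00464, lower than COX-1+/+ by a Z of -0.458 (SE 0.0877, limma adjusted p 0.0142). Of the 5 members 1 was called here, and 5.25% of 8054 probes were called by limma and 3.38% by the rule, which Acat1 met too (z ratio -3.10). Without COX-2+/+ array 2, COX-2+/+ array 3 or COX-1+/+ array 1 the adjusted p was 0.0564, 0.0633 and 0.0511. The Acat1 z ratio in COX-1-/- hippocampus was -1.14 when the pooled wild-type arrays of the separately bred lines served as control. The rule was then no longer met. With that control Acly met it at a z ratio of -2.07. Some markers of other cells also differed between the wild-type groups. The neuronal markers, 2 genes of 8, lay between 0.193 and 0.229 (mean Z) in the COX-2 line and between 0.0843 and 0.132 in the COX-1 line. Snap25 was higher by 0.270 (z ratio 1.83, limma adjusted p 0.0624). The other of the 2 tested neuronal probes was lower, and the median difference of the 2 was 0.0738. The endothelial and blood markers, 2 genes of 5, lay between 0.553 and 0.565 against 0.564 to 0.649, and 2 probes of Hba-a1 were lower by -0.227 and -0.222 (limma adjusted p 0.0234 and 0.0298). Of the 11 tested probes of that list 3 were higher, and these 2 of Hba-a1 were its only limma calls. The part of these markers in the Acat1 difference was not tested. Between the wild-type groups Acly was higher in the COX-2 line by 0.119 (SE 0.0718) and Hmgcs1 AU020524 lower by -0.145 (SE 0.0691), both without overlap, as were 33.6% of all probes. Hmgcs1 BG069739 was higher by 0.133 (SE 0.0537) with overlap (limma adjusted p 0.158).

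Hippocampus without COX-2 gave no member that met the rule (4.09% of 8040 tested probes met it) or passed limma (0%, with 1 member among 985 probes at an unadjusted p under 0.05), and no member was free of overlap (17.5% of all probes were). Acat1 was 0.0469, -0.0581 and 0.192 in COX-2-/- hippocampus, overlapping with COX-2+/+, with a difference of -0.0127 (95% interval -0.200 to 0.175). Acly and Hmgcs1 probe BG069739 had the larger differences, both lower, while the other Hmgcs1 probe had the opposite sign. Acly was 0.372, 0.267 and 0.201 against 0.334, 0.437 and 0.519, a difference of -0.150 (SE 0.0718, limma adjusted p 0.417). Hmgcs1 BG069739 was 0.143, 0.107 and 0.0651 against 0.125, 0.325 and 0.239, a difference of -0.125 (SE 0.0537, limma adjusted p 0.376, unadjusted p 0.0350). In both, the groups overlapped through the lowest wild-type array, array 1. Without that array Acly and Hmgcs1 BG069739 met the study's rule (z ratio -1.75 and -1.57), and Acly also met it without COX-2-/- array 1 (-1.56). Hsd17b10 differed by -0.0524 (SE 0.0543) and Hmgcs1 AU020524 by 0.0867 (SE 0.0691). The difference between the 2 null effects in hippocampus was 0.331 for Acat1 (SE 0.124, unadjusted p 0.0180, limma adjusted p 0.607, COX-2 minus COX-1) and 0.000220 for Acly (95% interval -0.217 to 0.217), in a test that called 0% of 8040 probes and gave 607, 1 of them a member, an unadjusted p under 0.05.

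In hippocampus, Ttr was low on array 3 of every group but COX-1+/+, at 0.246 to 0.402, against 0.833 to 2.36 on the other arrays of those groups. In cortex of the COX-2 line it was 1.59 on array 3 of the heterozygotes and 0.170 to 0.447 elsewhere. Its relation to Acat1 was not of one direction, since among the low-Ttr arrays Acat1 was the highest of its group in both null groups and the lowest in COX-2+/+ and in heterozygotes. The part of Ttr-rich tissue in the member values was not tested.

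With 1 COX-2 allele the hippocampus had the lowest Acat1 of the 8 groups, at -0.0420, -0.0415 and -0.0787. These arrays lay below all COX-2+/+ arrays, with a difference of -0.127 (SE 0.0877, limma adjusted p 0.465), and the share of all probes without overlap in this comparison was high, at 30.4%. The mean Z over the arrays of this comparison was 0.00951, close to the filter at 0. Against the pooled wild-type arrays of the lines the difference was -0.356, with a z ratio of -2.63 that met the rule and a limma adjusted p of 0.0109. That pool held COX-1+/+ hippocampus, with an Acat1 mean of 0.531 against 0.0731 in COX-2+/+, so the value includes the difference between the lines. The share of all probes called with that control is not given here. Hmgcs1 BG069739 was tightly grouped in COX-2+/- hippocampus (0.222, 0.227 and 0.218), differing from COX-2+/+ by -0.00792 (SE 0.0537) and from COX-2-/- by 0.117 (SE 0.0537, limma adjusted p 0.291). The heterozygous and null arrays of that probe did not overlap, as in 23.9% of all probes. Acly differed from COX-2+/+ by -0.0767, Hsd17b10 by -0.00574 and Hmgcs1 AU020524 by 0.0495, all with overlap. No member was called in either heterozygous comparison of hippocampus (0 and 1 member with an unadjusted p under 0.05), where limma called 2.82% of 8041 probes against COX-2+/+ and 0.746% of 8048 against COX-2-/-, and the rule 6.21% and 5.02%.

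Between the regions, limma called Hsd17b10 higher in hippocampus of COX-1+/+ mice and Hmgcs1 BG069739 higher in hippocampus of COX-2+/- mice. Hsd17b10 was 1.26, 1.37 and 1.30 in COX-1+/+ hippocampus against 1.24, 1.03 and 1.19 in COX-1+/+ cortex, a difference of 0.158 (SE 0.0555, limma adjusted p 0.0353). That made 1 of 1 member called, in a comparison where limma called 28.5% of 4127 probes, the rule 7%, and 39.1% did not overlap. The z ratio of 0.923 did not meet the rule. It was not called without hippocampus array 2 or 3 or cortex array 2 (adjusted p 0.150, 0.0632 and 0.230, difference down to 0.0943). In COX-1-/- mice it was higher in hippocampus by 0.0911 (SE 0.0555, limma adjusted p 0.244), with overlap, where limma called 25.2% of 4132 probes, the rule 7.6%, and 37% did not overlap. In COX-2+/+ mice Hmgcs1 BG069739 was higher in hippocampus by 0.184 (SE 0.0526), met the rule (z ratio 1.54, beside 7.07% of 8011 probes) and had a limma adjusted p of 0.0512, with 4.14% of probes past limma. Hsd17b10 was higher by 0.163 (SE 0.0569, limma adjusted p 0.0965), also without overlap, and Acly by 0.145 (SE 0.0646, adjusted p 0.189) with overlap. Hmgcs1 AU020524 was lower by -0.0968 (SE 0.0697), without overlap, and 26.7% of all probes did not overlap. Without hippocampus array 2 or 3 or cortex array 2 or 3 Hmgcs1 BG069739 no longer met the rule (z ratio 1.12, 1.39, 1.498 and 1.22), while without hippocampus array 1 it passed limma (adjusted p 0.0356) and Acly and Hsd17b10 met the rule as well (z ratio 1.52 and 1.76). In COX-2+/- mice Hmgcs1 BG069739 was higher in hippocampus by 0.178 (SE 0.0526, limma adjusted p 0.0297), 1 call among 4 tested members beside 12.6% of 8008 probes. The rule, met by 6.76%, called no member, and 38.7% of probes, with this 1 of 5 members, did not overlap. That call was lost without any one of the hippocampus arrays or cortex array 2 or 3 (adjusted p 0.0752 to 0.122), and Acat1, whose mean Z was under 0 there, was not tested. Hsd17b10 differed by 0.0804 in COX-2+/- mice (SE 0.0569, limma adjusted p 0.378), with overlap. The other Hmgcs1 probe, AU020524, had the opposite sign there, at -0.101 (SE 0.0697, limma adjusted p 0.366), with overlap. The Hmgcs1 BG069739 difference stayed between 0.149 and 0.180 in the fits without 1 array and was 0.110 after correction for row order (adjusted p 0.0765).

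In mice without COX-2 Acly was lower in hippocampus than in cortex, and the differences of the other 4 member probes had the same sign without meeting the rule. Acly was lower by -0.172 (SE 0.0646) without overlap and met the rule (z ratio -1.51, beside 4.66% of 8032 probes), with a limma adjusted p of 0.197. Hmgcs1 BG069739 was lower by -0.132 (SE 0.0526), also without overlap, as were 18.7% of all probes, and Acat1 by -0.155 (SE 0.0783) with overlap. Hsd17b10 differed by -0.0517 and Hmgcs1 AU020524 by -0.0549. None of the 5 passed limma, which called 0.635% of probes, and 2 members had an unadjusted p under 0.05. Without hippocampus array 2 or 3 or cortex array 1 or 3 the Acly z ratio was -1.36, -1.12, -1.36 or -1.42, short of the rule, and without hippocampus array 3 Acat1 met it at -1.88.

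A test of the COX-2-/- effect in hippocampus minus that in cortex was added after these values had been seen. For Hmgcs1 BG069739 the effects were -0.125 and 0.190 and their difference -0.315 (SE 0.0744, 95% interval -0.470 to -0.160, limma adjusted p 0.0380). It was the 1 member of 5 called, beside 1.76% of 8021 probes. Acly differed by a like amount, -0.317 (SE 0.0914, adjusted p 0.0755), followed by Hsd17b10 at -0.215 (SE 0.0804, adjusted p 0.143), Acat1 at -0.198 (SE 0.111, adjusted p 0.324) and Hmgcs1 AU020524 at 0.0419 (SE 0.0986, adjusted p 0.841). The call of Hmgcs1 BG069739 was lost without any one of 8 of the 12 arrays, arrays 2 and 3 of each group (adjusted p 0.0583 to 0.104, difference -0.267 to -0.326), and after correction for row order (-0.190, adjusted p 0.169). Without COX-2-/- hippocampus array 1 Acly was called too (adjusted p 0.0301). The same difference for the heterozygous effect called no member, with adjusted p of 0.527 to 0.989, beside 4.38% of 8011 probes, and that for the COX-1-/- effect gave -0.0667 for Hsd17b10 (SE 0.0784, limma adjusted p 0.697), beside 2.71% of 4127 probes.

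**Figure D3:**
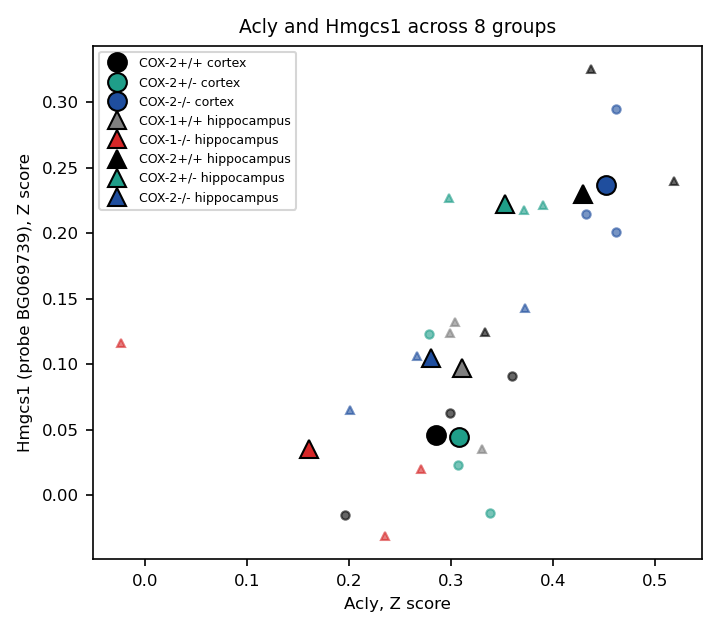
Z score of Acly (horizontal axis) against Z score of Hmgcs1 probe BG069739 (vertical axis). Small symbols are the 24 arrays with values, large outlined symbols the means of 3 arrays; circles are cortex and triangles hippocampus. COX-2-/- cortex and COX-2+/+ hippocampus lie at the upper right, at Acly 0.452 and 0.430.

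Across the 8 groups with values, Acly and Hmgcs1 BG069739 had the same order at both ends. The highest means were those of COX-2-/- cortex (Acly 0.452 ± 0.0170, Hmgcs1 0.236 ± 0.0507, SD, n = 3) and COX-2+/+ hippocampus (0.430 ± 0.0927 and 0.230 ± 0.101), and the lowest those of COX-1-/- hippocampus (0.161 ± 0.161 and 0.0350 ± 0.0746). Pearson's r over the group means was 0.854 (n = 8), and over the 24 arrays it was 0.578 with Spearman's rho of 0.678. Once each array was taken as a deviation from its group mean, r was 0.00393, so the likeness lay between groups and not between arrays of a group. Between Acly and the other Hmgcs1 probe, AU020524, r was -0.558 over the group means and -0.522 over the arrays. These are descriptions over arrays that share groups. Acat1 and Acly went apart within groups, with r of -0.712 for the deviations and -0.0571 over the group means. In the order of Acly means, every group overlapped with the next, and for Hmgcs1 BG069739 the same held except between COX-2+/- and COX-2-/- hippocampus.

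The 2 Hmgcs1 probes did not follow each other. AU020524 stood between 3.09 and 3.28 in mean Z, below the array maxima of 3.85 to 4.19, and BG069739 between 0.0350 and 0.236. Over 24 arrays their r was -0.359 and over 8 group means -0.623. AU020524 was lowest in COX-2+/+ hippocampus (3.09, 3.08 and 3.09), the group where BG069739 was next to its highest mean. Each group of AU020524 overlapped with its neighbour in order. Values for Hmgcs1 therefore depend on which tag is read, and the files do not say which reads the transcript better.

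Hsd17b10 ranged from 1.11 in COX-2+/+ cortex to 1.31 in COX-1+/+ hippocampus, with a pooled SD within groups of 0.0690, and no pair of neighbours among its 10 groups was free of overlap. Acat1 had the widest range of the 5 probes, from -0.0541 to 0.531 with a pooled SD of 0.102.

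Among probes with 1 gene symbol and mean Z above 0, the patterns most like that of Acat1 over 24 arrays were Mat2b (r = 0.902), Cyhr1 (0.887) and E330034G19Rik (0.874). For Hsd17b10 over 30 arrays they were Rps6 (0.746), Rpl23a (0.722) and Zfp33b (0.658), the first of which encode ribosomal proteins. For Acly they were Rrbp1 (0.873), Sdf4 (0.870) and Ctnnd1 (0.856). For Hmgcs1 BG069739 they were Trmt10c (0.884), Lsm2 (0.880) and Clk1 (0.856), and for AU020524 Atp5h (0.833), Nudt21 (0.833) and Fau (0.817). These r values are the highest among 4539 or 4540 probes and are given as a description. For Hsd17b10 only the 2361 such probes in its own part of the table were compared.

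**Figure D4:**
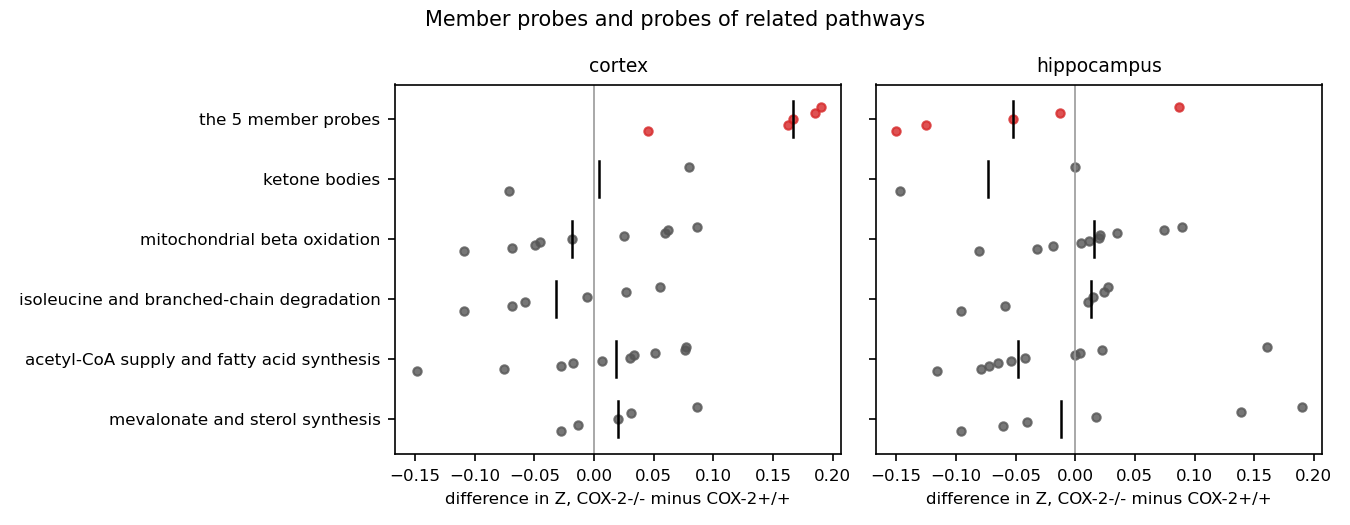
Difference in Z between COX-2-/- and COX-2+/+ (horizontal axis) in cortex and hippocampus for the 5 member probes and for tested probes of 5 related pathway lists (vertical axis). Points are probes and black lines medians. In cortex 4 member probes lie between 0.162 and 0.190, to the right of every pathway probe. The study had picked Acat1, Hsd17b10 and Acly for their change in this comparison, so their place there is a description only.

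Other enzymes of the same routes were not called in COX-2-/- cortex. In 5 lists of 97 genes, without the members, 55 genes were measured by 75 probes, and 32 probes were tested in this comparison. None met the study's rule, beside 4.32% of 8003 tested probes, and none passed limma, which 0% passed. A count of 0 among 32 therefore does not set these enzymes apart from other probes. Of the 32 probes 1 had an unadjusted limma p under 0.05, beside 754 of all tested probes, and 16 of 32 were higher. The median difference was -0.0184 for mitochondrial beta oxidation (9 probes), -0.0316 for isoleucine and branched-chain degradation (6 probes), 0.0181 for acetyl-CoA supply and fatty acid synthesis (10 probes), 0.0200 for mevalonate and sterol synthesis (5 probes) and 0.00393 for ketone bodies (2 probes), beside -0.00830 over all tested probes. The highest difference was that of Sqle, squalene epoxidase of cholesterol synthesis, at 0.0863, below each of the 4 member probes that met the rule. The study picked Acat1, Hsd17b10 and Acly for their change here, and these 4 probes were set apart by the rule. Their higher place therefore followed from the choice and is given as a description.

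Elsewhere a few of these enzymes were called, and the calls are to be read beside the shares of all tested probes. The rule was met by 4.8% in COX-1-/- hippocampus and 4.09% in COX-2-/- hippocampus. Limma called 2.82% in COX-2+/- against COX-2+/+ hippocampus. Between the wild-type groups in hippocampus limma called 5.25% and the rule 3.38%, and limma called 2 of 34 pathway probes. Sqle met the rule in COX-1-/- hippocampus, where it was 0.578 ± 0.0161 against 0.754 ± 0.100 (SD, n = 3; z ratio -1.53, limma adjusted p 0.117), the same direction as Acat1, and it was the 1 rule call among 35 tested pathway probes. In COX-2-/- hippocampus the 1 rule call was Dhcr7, the last enzyme of cholesterol synthesis, higher by 0.190 (z ratio 1.81, limma adjusted p 0.346), opposite in sign to Hmgcs1 BG069739 there. In COX-2+/- hippocampus limma called 3 of 33 pathway probes against COX-2+/+: Acads, the short-chain acyl-CoA dehydrogenase, was higher by 0.200 (adjusted p 0.0409), and Cs, citrate synthase, which makes the citrate that Acly splits, was lower by -0.219 (adjusted p 0.0253), as was Sqle by -0.248 (adjusted p 0.0256). Between the wild-type groups in hippocampus Etfa was higher in the COX-2 line by 0.257 (limma adjusted p 0.0325) and Hadha, the large subunit of the mitochondrial trifunctional protein, lower by -0.200 (adjusted p 0.0266), and Elovl6, a fatty acid elongase, met the rule at -0.337 (z ratio -2.29, adjusted p 0.0606). In cortex no pathway probe was called by limma or the rule between genotypes of a line, of 13 tested for COX-1-/- and 32 or 33 for the COX-2 line, and 0 to 2 had an unadjusted p under 0.05. Among all tested probes of these cortex comparisons limma called 0% to 0.0488% and the rule 2.71% to 4.32%.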

How the data were processed

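The deposited values are scores: the authors labelled cDNA from 5 µg of total RNA with radioactive dCTP, hybridised it to a custom nylon membrane, read intensities with ArrayPro and converted the natural log intensity of each array to Z scores in a spreadsheet macro. Both parts of the table have mean 0 and SD 1 on each array. Background subtraction is not given in the sources used here. Precision is limited by 3 arrays a group, and an exact permutation test of 3 against 3 cannot go below p = 0.1.

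Members and gene lists were chosen with earlier results of these data known. Named were all member probes with 1 symbol, the 3 genes of highest r with each, with called pathway probes of genotype comparisons as optional additions; markers are given beside the results they move with, and Sqle in COX-2-/- cortex was named after its value was seen. Gene symbols came from GEO's platform annotation: 9663 probes carry 1 symbol, 436 several and 6797 none.

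Under R 4.3.3, limma 3.58.1 fitted a mean per group over all 15 arrays of 1 region, and over 30 arrays for contrasts of region; rows of the first part were fitted without COX-1 cortex. P-values were Benjamini-Hochberg adjusted over probes with mean Z above 0, at a threshold of 0.05. The code was tested on simulated data. Alternatives were median centring, quantile normalization, other filters and z ratio thresholds, the SD of each part, an intensity trend, the compared groups alone, correction for row order, wild-type arrays of both lines, a replicate block and leaving out each array. Deviations of same-numbered arrays correlated with r over 0.1 in every pair only for the wild-type groups in hippocampus (0.103 to 0.257), and other comparisons held at least 1 pair under that limit; the labels give no reason for a pairing. Contrasts of the effects between regions, and Ttr by array, were added after the data were seen. Figures used Python with pandas and matplotlib.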

Additional observations from a re-analysis of the deposited data

Results flagged for a closer look

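The COX-2-/- effect on Hmgcs1 read by BG069739 differed between regions. In cortex the null arrays were higher than wild type by 0.190 and in hippocampus lower by -0.125, and the contrast of these effects was -0.315 (limma SE 0.0744, adjusted p 0.0380). The contrast was chosen after the values had been seen. The other Hmgcs1 probe, AU020524, gave 0.0419 for the same contrast (SE 0.0986, adjusted p 0.841).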

How the results depend on the processing

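No called difference of a member probe changed sign under the alternatives run, and 479 of 549 counts of called members stayed within 1.5 times their value. Counts of 0 that stayed 0 are among the 479, so this share does not measure how well the calls held. Leaving out each array in turn gave these ranges of members that met the study's rule: 2 to 4 in COX-2-/- cortex, 0 to 2 for COX-2+/- against COX-2-/- cortex, 0 to 1 in COX-1-/- hippocampus, 0 to 2 in COX-2-/- hippocampus, 0 to 3 between regions in COX-2+/+ and 0 to 1 in COX-2-/-. For limma they were 0 to 1 in COX-1-/- hippocampus, between the wild-type groups and between regions in COX-1+/+, COX-2+/+ and COX-2+/-, and 0 to 2 for the COX-2-/- effect between regions. With a mean Z above 0.5, which removes Acat1, Acly and Hmgcs1 BG069739, 1 member met the rule in COX-2-/- cortex, and every other comparison with a rule or limma call of these probes went to 0. At a z ratio beyond 2 the rule counts were 0 in COX-2-/- cortex, in COX-2+/- against COX-2-/- cortex and between regions in COX-2+/+ and COX-2-/-. Correction for row order, by running medians over neighbouring rows, gave 2 in COX-2-/- cortex (Acat1 and Acly), 1 in COX-2+/- against COX-2-/- hippocampus (Acat1), and 0 where 1 had been called in COX-2+/- against COX-2-/- cortex, between regions in COX-2+/+, COX-2+/- and COX-2-/-, and for the COX-2-/- effect between regions (-0.190, adjusted p 0.169). Quantile normalization gave 2 for COX-2+/- against COX-2-/- cortex and 0 between regions in COX-2+/+. An intensity trend gave limma counts of 1 in COX-1-/- hippocampus (Acat1, adjusted p 0.0444) and between regions in COX-2+/+, and 2 for the COX-2-/- effect between regions. The wild-type arrays of both lines gave rule counts of 1 in COX-2-/- and in COX-2+/- hippocampus (Acat1) and a limma count of 1 in the latter. That control includes COX-1+/+ hippocampus, the group of highest Acat1. Median centring gave 0 between regions in COX-1+/+, as did the compared groups alone, which also gave 0 for the COX-2-/- effect between regions, and the SD of each part gave 0 between regions in COX-2-/- and exchanged the call in COX-2+/+ (Hmgcs1 BG069739 lost at a z ratio of 1.34, Hsd17b10 gained at 1.67). The causes were not tested. The replicate block changed no call; for Acat1 between the wild-type groups in hippocampus, where the numbers paired, the adjusted p with the block was 0.0145.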
